A study of Mus musculus with 2 samples.

Results

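The Ly6 surface antigens were described in cultured mouse ovary by 8 genes, Ly6a, Ly6c1, Ly6c2, Ly6d, Ly6e, Ly6g, Ly6h and Ly6i, of which 6 had a named probe among the 20658 genes that could be named on the arrays. The group was chosen by the agonist to antagonist ratio of Ly6c1, one of the highest on the arrays, and the other genes were taken from the same family, so the values below are a description and no test was made of them. Probes were found through the RefSeq transcript that the array files give for each probe, and Ly6c2 and Ly6g were not analysed here because no probe carried one of their RefSeq transcripts.

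The study compared 1 RNA sample with another. Ovaries of 2-week-old mice were cut lengthwise and the pieces kept in culture for 3 days, in one sample with tachykinin receptor (TKR) agonists and in the other with TKR antagonists. The agonists were [Sar9, Met(O2)11]-SP for TACR1, GR-64349 for TACR2 and senktide, a succinylated fragment of substance P, for TACR3, and the antagonists were a non-peptide ligand of TACR1, GR-94800 for TACR2 and SB218795 for TACR3, each at 1 μM. The study describes the antagonist ovaries as treated with all of the antagonists. It gives the purpose of the symmetrical cut as limiting errors that come from comparing different ovaries. For the arrays, the sources used here do not state whether the agonists were combined, how many ovary pieces made up an RNA, or whether an ovary gave a piece to each group. Untreated ovaries were not analysed here, so a ratio does not show which side departed from the untreated level. In whole tissue, fewer cells of a type and less RNA per cell cannot be told apart.

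Ly6 proteins are small cell surface proteins with a disulphide-bonded, three-finger fold that are held in the membrane by a glycosylphosphatidylinositol (GPI) anchor. In the mouse many of their genes lie side by side on chromosome 15 and arose by repeated duplication, so that several are close in sequence. They are best known as markers of blood and vessel cells. Ly6a encodes Sca-1, an antigen of haematopoietic stem cells that capillary endothelium and stromal progenitors also carry. Ly6c1 and Ly6c2 encode the Ly-6C antigen of monocytes, endothelium and some T cells, and Ly6g encodes the antigen by which neutrophils are sorted. Ly6e encodes a thymic antigen that many tissues express and Ly6d marks early B cells and some epithelia, whereas Ly6h is known from the brain and Ly6i from myeloid cells. Interferon raises the expression of several of them in blood cells.

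Because the reading of a Ly6 probe depends on how alike these genes are, the stretches in front of Ly6c1, Ly6c2 and Ly6g are shown from RefSeq (GRCm38.p6), the 3 members of 8 that the promoter table held. Each is written 5′ to 3′ on the strand of its gene and ends before the annotated gene begins, and capitals mark the longest run of bases, 12 in length, that was found in all 3 of them.
Ly6c1 (chr15:75048921-75049087, minus strand): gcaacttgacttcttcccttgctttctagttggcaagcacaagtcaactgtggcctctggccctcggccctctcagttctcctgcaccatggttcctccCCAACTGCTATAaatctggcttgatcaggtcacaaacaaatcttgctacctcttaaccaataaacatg
Ly6c2 (chr15:75112067-75112221, minus strand): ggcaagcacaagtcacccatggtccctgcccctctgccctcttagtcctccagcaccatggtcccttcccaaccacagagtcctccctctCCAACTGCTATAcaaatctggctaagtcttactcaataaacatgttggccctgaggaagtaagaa
Ly6g (chr15:75155011-75155260, plus strand): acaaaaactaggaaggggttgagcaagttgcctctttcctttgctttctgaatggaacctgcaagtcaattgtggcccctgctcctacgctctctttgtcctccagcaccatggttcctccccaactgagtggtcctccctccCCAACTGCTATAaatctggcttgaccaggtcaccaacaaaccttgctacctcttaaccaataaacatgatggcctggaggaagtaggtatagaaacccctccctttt
In the best local alignment, Ly6c1 was identical to Ly6g at 142 of 166 aligned bases, with 24 gapped positions (74.7% of the alignment), and to Ly6c2 at 102 of 130 with 10 gapped positions (72.9%). Ly6c2 and Ly6g were identical at 117 of 142 aligned bases with 26 gapped positions (69.6%). These stretches lie outside the transcripts that the probes bind and therefore show only how close the copies are. The array files hold no probe sequences, so whether a probe also binds the transcript of another Ly6 gene could not be examined, and the signal of each probe below is that of the gene it is named for together with any copy it binds. The promoter table was also searched, on both strands, for the letters of 2 interferon response elements. The gamma-activated site TTCNNNGAA and the core of the interferon-stimulated response element, GAAA followed after any 2 bases by GAAA, were found in none of the 6 windows of 250 bases before an annotated start of Ly6c1, Ly6c2 and Ly6g, against 7.02% and 2.98% of all 32851 such windows. The 2 windows of each gene overlap, so they are not 6 separate windows to set beside these shares. The search says only that these letters are not in these windows.

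Signals are given in units of the image analysis software after its background correction, with the software's own error estimate for the spot, since each Ly6 probe was printed at 1 spot and hybridised once per group. Such an error describes one spot and says nothing of how ovaries vary. By the software's criterion, 65.4% of the spots for transcripts with the agonists and 61.6% of those with the antagonists were well above background, and the lowest signals that passed were 18.1 and 19.9. A log2 ratio is the log2 signal with the agonists minus that with the antagonists after each array was divided by its 75th percentile (672 and 569 signal units). Both arrays had 33073 probes in common that passed this criterion, whose log2 ratios had a median of -0.10 and an SD of 0.43. No spot of a Ly6 member was saturated or marked as an outlier.

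Ly6c1 was measured by 2 probes for different transcripts, and both were far brighter with the agonists. The probe for NM_001252055 had a signal of 6334 ± 633 with the agonists and 639 ± 64.0 with the antagonists. The probe for NM_001252058 had a signal of 1337 ± 134 with the agonists and 123 ± 13.0 with the antagonists. All 4 of these spots were well above background, the dimmest of them at 6.18 times the lowest signal that passed on its array. After scaling, the log2 ratios were 3.07 (8.39-fold) and 3.20 (9.20-fold), with spot errors of 0.20 and 0.21. The difference between the probes, 0.13, was smaller than the error of either. Among the 33073 probes they stood at ranks 19 and 11.

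Ly6a, which encodes Sca-1, had a signal of 891 ± 89.2 with the agonists and 136 ± 14.3 with the antagonists. Its log2 ratio was 2.47, or 5.56-fold, with a spot error of 0.21, at rank 54. Ly6d, an antigen of lymphoid progenitors and epithelia, had 154 ± 16.0 with the agonists and 31.0 ± 5.45 with the antagonists. The log2 ratio of Ly6d was 2.07, or 4.20-fold, with a spot error of 0.29, at rank 112. With the antagonists Ly6d lay only 1.56 times above the lowest signal that passed, and its ratio moved more than those of Ly6a and Ly6c1 when the signal was taken otherwise: it was 0.86, below 2-fold, with normexp, another background correction run on the median spot intensity.

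Ly6h, a member known from the brain, was measured by 2 probes for the same transcript, NM_011837. The brighter one had a signal of 726 ± 72.8 with the agonists and 250.4 ± 25.5 with the antagonists, giving 1.30 as log2 ratio (2.45-fold, spot error 0.21, rank 482). The dimmer one had 57.5 ± 6.81 with the agonists and 18.2 ± 4.36 with the antagonists, where it was not well above background. For such a probe only a lower bound can be given, and the dimmer Ly6h probe was at least 2.45-fold brighter with the agonists. Both Ly6h probes were thus brighter with the agonists; with normexp the bound of the dimmer one was 0.16 on the log2 scale.

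The remaining measured members, Ly6e and Ly6i, differed far less between the arrays. Ly6e, which is expressed in many cell types, had a signal of 6601 ± 660.2 with the agonists and 4062 ± 406 with the antagonists, giving 0.46 as log2 ratio (1.37-fold, spot error 0.20, rank 3131). Ly6i had 114 ± 12.3 with the agonists and 80.0 ± 9.31 with the antagonists, giving 0.27 as log2 ratio (1.21-fold, spot error 0.23, rank 5225). Both were above the median of all probes, and the ratio of Ly6i was close to its spot error.

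**Figure D1:**
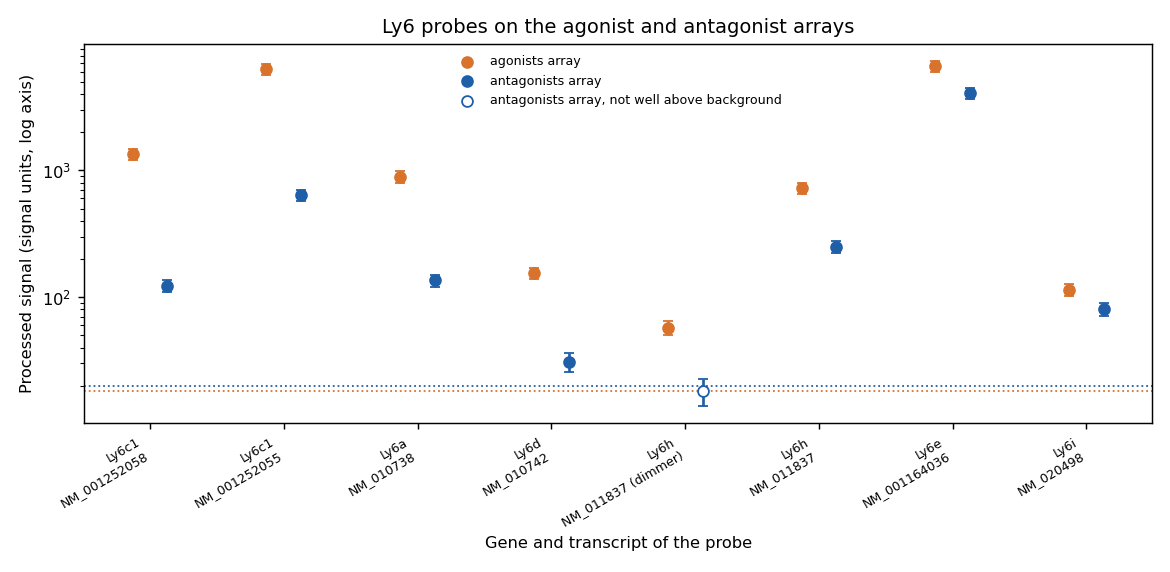
Processed signal in signal units (log axis) of the 8 Ly6 probes, ordered by log2 ratio, on the agonist array (orange) and the antagonist array (blue). Points are single spots, bars are the software's error of the spot, dotted lines are the lowest signals well above background (18.1 and 19.9), and the open point is the Ly6h spot that was not well above background; every probe was brighter with the agonists, Ly6i by the least.

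Of the 7 Ly6 probes well above background on both arrays, 5 were 2-fold or more higher with the agonists, against 2.69% of the 33073 probes, and 0 were 2-fold or more lower, against 0.705%. The median of the 7 log2 ratios was 2.07, beside -0.10 for all probes. Since Ly6c1 was picked for its ratio, these counts are not independent of the choice. The members differed among themselves by more than the spot error, from 0.27 for Ly6i to 3.20 for a probe of Ly6c1. From high to low the order was Ly6c1, Ly6a, Ly6d, Ly6h, Ly6e and Ly6i. In this order the ratios of the Ly6c1 probes, and those of Ly6e and Ly6i, were closer to each other than the spot error of either. Every other pair of neighbours was further apart than that. Under normexp, Ly6d (0.86) lay below Ly6h (1.02).

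**Figure D2:**
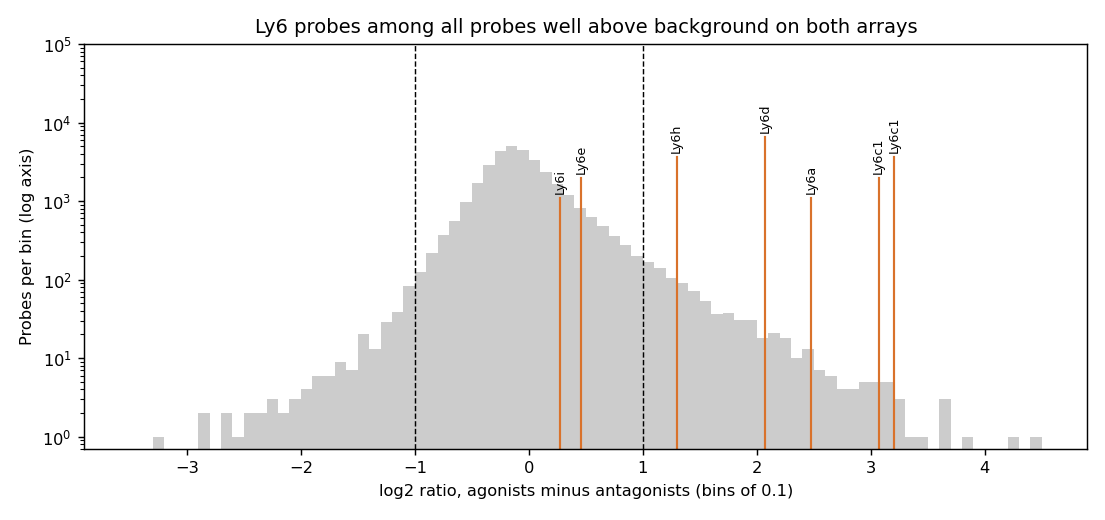
Number of probes (log axis) per bin of 0.1 in log2 ratio, agonists minus antagonists, for 33073 probes that passed on both arrays, with the 7 Ly6 probes as orange lines and 2-fold as dashed lines. The lines of Ly6i and Ly6e lie within the bulk of the probes, and those of Ly6h, Ly6d, Ly6a and both Ly6c1 probes lie beyond 2-fold.

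The members lie in one gene cluster, and the direction was not shared by all of its genes. From Ly6d to Ly6h the RefSeq order on chromosome 15 holds 22 protein-coding genes, of which 13 had a named probe and 9 were well above background on both arrays. Of these 9 genes, 5 were at least 2-fold higher with the agonists, against 4.01% of all 15258 genes measured in this way; they were the members Ly6d, Ly6a, Ly6c1 and Ly6h and one gene of another family, Cyp11b1 (1.89), an enzyme of corticosteroid synthesis. Between them lay genes with small ratios, among them Gml2 (-0.19), and Ly6k had 0.87. The dim Ly6f, beside Ly6g2 in this order, had a signal of 22.3 ± 4.95 with the agonists and 4.61 ± 4.62, not well above background, with the antagonists, and allows no bound above 1-fold. The gene on the far side of Ly6h, Gpihbp1, was also higher (1.74), whereas the next 4 genes beyond it, Zfp41 (-0.81), Top1mt (-0.41), Rhpn1 (-0.72) and Mafa (-0.05), were not. On the other side of Ly6d, Lynx1 (-0.11), Slurp2 (-0.14) and Lypd2 (-0.07), relatives that act mainly on acetylcholine receptors or in skin, had ratios close to the median of all genes. The 5 flanking genes on each side had a median of -0.13 over the 8 that were well above background on both arrays, and that of the 9 genes from Ly6d to Ly6h was 1.30. Those 9 include 6 members, chosen with values known, so their median and count are not independent of the choice. The others were Cyp11b1 (1.89), Ly6k (0.87) and Gml2 (-0.19).

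**Figure D3:**
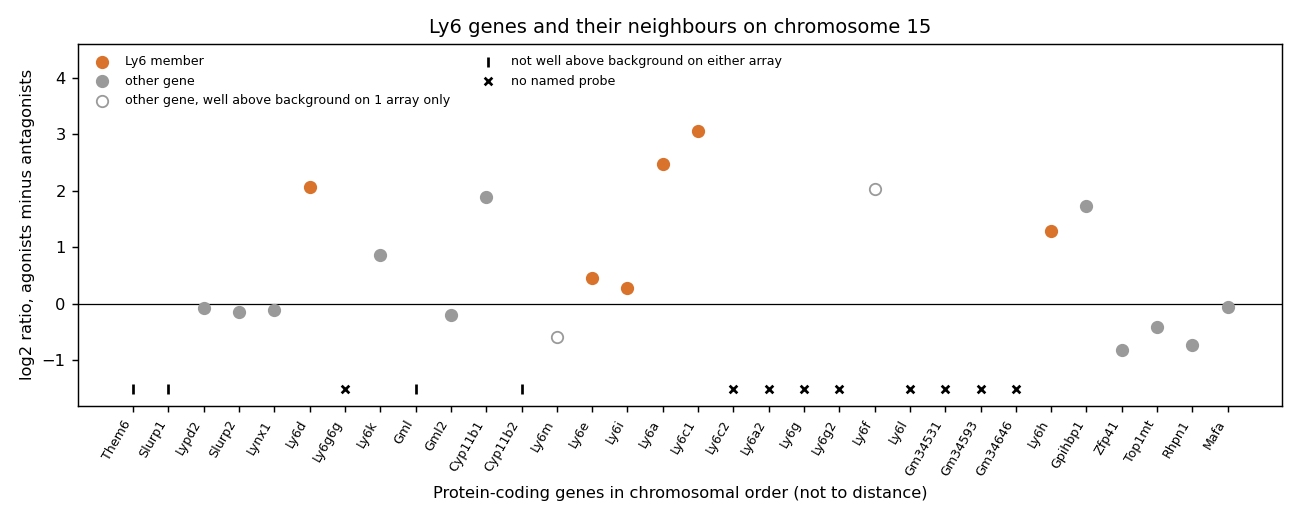
Log2 ratio, agonists minus antagonists, of the protein-coding genes from Ly6d to Ly6h and 5 flanking genes on each side, in chromosomal order and not to distance. Orange points are Ly6 members and grey points other genes, open points were well above background on 1 array only, and marks at the bottom show genes without a named or without a detected probe; Ly6a and Ly6c1 are neighbours and lie above 2.4, and Lynx1, Slurp2 and Lypd2 lie near 0.

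The wider family of proteins with a Ly6/uPAR domain, the fold shared with the urokinase receptor, was less shifted than the 6 measured members. Of 35 such genes listed, 32 had a named probe and 24 were well above background on at least 1 array. Their median log2 ratio was 0.17 with 16 of 24 above 0, beside -0.08 and 40.3% for all 16282 genes measured in this way, and 3 of the 21 well above background on both arrays were 2-fold or more higher, against 4.01% of all genes, and none was lower by that much, against 0.577%. The 3 were Gpihbp1, Ly6g6e and Plaur. Gpihbp1, which carries lipoprotein lipase across capillary endothelium, had a signal of 7510 ± 751 with the agonists and 1901 ± 190.1 with the antagonists. Ly6g6e, a family member encoded on another chromosome, had 1447 ± 145 and 407 ± 41.0, a log2 ratio of 1.59. Plaur, the urokinase receptor, had 987 ± 98.8 and 387 ± 39.0, a log2 ratio of 1.11. The complement inhibitors Cd59a and Cd59b gave 0.18 and a bound of at least 2.35-fold higher, the latter from a probe too dim with the antagonists; with normexp the bound of Cd59b was 0.29 on the log2 scale.

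The other relatives well above background on both arrays lay below 2-fold. Higher than the median of all genes were Ly6k (0.87), Lypd6b (0.69), Ly6g6d (0.56), Lypd6 (0.36), Lypd5 (0.22), Psca (0.18), Lypd3 (0.17), Cd177 (0.10), Pinlyp (0.03) and Ly6g6c (0.02). The lowest ratios were those of Tex101 (-0.36), Spaca4 (-0.29), proteins of germ cells, and Gml2 (-0.19), and Ly6g5b had -0.11. The other probes of Lynx1 and Lypd6 gave 0.40 and -0.22. Ly6m was well above background with the antagonists only, at least 1.40-fold higher there.

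The genes listed for synthesis of the GPI anchor, on which Ly6 proteins depend for their place in the membrane, did not follow the Ly6 members. Of 28 genes listed, 26 were well above background on at least 1 array. Their median log2 ratio was -0.32 with 7 above 0, beside -0.08 and 40.3% for all genes. Past 2-fold in either direction were 0 of 25, beside 4.01% and 0.577% of all genes. The 3 with the highest mean signal were Pigp (0.11), Pigq (-0.30) and Dpm3 (0.02), and the ratios ranged from -0.68 for Pigm to 0.22 for Pigz among those well above background on both arrays.

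Genes of the interferon response had a median log2 ratio below that of all genes, unlike the Ly6 members. Their summed signal was higher with the agonists (51924 against 39136 with the antagonists). Such sums, here and below, are of signals before scaling, unlike the ratios. The 75th percentiles of the arrays were 672 with the agonists and 569 with the antagonists. Of 21 listed, 20 passed on both arrays, with a median of -0.40 and 7 above 0, beside -0.08 and 40.3% for all genes. None was 2-fold higher, against 4.01% of all genes, and 4 were at least 2-fold lower, against 0.577%. Those 4 were Rsad2 (-2.84), Ifit3 (-1.53), Ifit1 (-1.41) and Cxcl10 (-1.21). Rsad2, which encodes the antiviral enzyme viperin, had a signal of 37.7 with the agonists and 228 with the antagonists. The 3 with the highest mean signal, Ifitm3 (0.49), Bst2 (0.37) and Irf1 (-0.05), had ratios above the median of all genes, and Ifitm3 the highest of the list.

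Markers of the cells that carry Ly6 antigens differed between the arrays too, and their part in the Ly6 values was not tested. For comparison with these and the following lists, the median of all genes was -0.08, with 40.3% above 0. All 14 endothelial genes were well above background on at least 1 array, with a median log2 ratio of 0.92 and 13 of 14 above 0; their signals summed to 60779 with the agonists and to 39055 with the antagonists. They ranged from -0.27 for Kdr to 2.49 for Vwf, and Egfl7 (0.41) and Robo4 (0.90) were, with Kdr, the 3 with the highest mean signal. Of 12 monocyte and macrophage genes, 10 passed on both arrays, with a median of 0.71, 9 above 0 and sums of 30055 and 20446. Cx3cr1 (2.61) had the largest ratio, and Plac8 (0.52), Csf1r (0.15) and Itgam (-0.31), the lowest, had the highest mean signals. Ccr2, the chemokine receptor that marks Ly-6C-high monocytes, was not well above background on either array.

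Markers of neutrophils, T cells and B cells, the other carriers of Ly6 antigens, were often dim. Of 11 neutrophil genes, 3 were well above background on both arrays, Csf3r (-0.14), Elane (0.05) and Camp (0.88), and S100a8, Cxcr2, Ngp and Retnlg on neither. The other 4 passed with the agonists only, at signals of 42.0 against 4.23 with the antagonists for Ltf, 26.2 against 4.58 for Mmp8, 29.5 against 9.62 for Mpo and 31.9 against 15.4 for S100a9. Their antagonist signals lay under 19.9, the lowest that passed on that array, so these pairs are not to be read as folds. Over all spots for transcripts, too, more passed with the agonists (65.4%) than with the antagonists (61.6%). How many genes of the whole array passed with the agonists only was not counted, so nothing is read from these 4. The median over all 7 genes, which includes the ratios of these dim probes, was 0.88. It was 0.045 over the 3 that passed on both arrays, and the sums of 83804 and 77415 were mostly Csf3r. T cell genes had a median of -0.10 over 6 genes, from -0.42 for Cd3g to 0.26 for Zap70, with Cd4 (0.10), Cd3e (-0.22) and Lck (-0.42) the highest in mean signal and sums of 8985 and 7664. B cell genes had 0.41 over 5 genes with sums of 973 and 616, and Ms4a1 (0.20) and Blnk (0.63) were the 2 well above background on both arrays; Cd79a was so with the agonists only, and Pax5 on neither.

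Among lists of stroma and epithelium, where Ly6a and Ly6d are also found, those of stroma and surface epithelium were higher with the agonists in most members, and that of stratified epithelium was higher in 2 of 4. Stroma and fibroblast genes had a median of 0.54 with 9 of 10 above 0 and sums of 296933 and 201040, from Lum (-0.30) to Thy1 (1.76), with Dcn (0.34), Col1a2 (0.15) and Cd34 (0.44) the highest in mean signal. Surface epithelium genes had 0.99 with 9 of 9 above 0 and sums of 46645 and 25539, from Cdh1 (0.14) to Lrrn4 (1.79), with Wt1 (0.23), Krt18 (1.03) and Krt19 (1.40) the highest in mean signal. Of 4 genes of stratified epithelium, with a median of 0.21, Krt15 had 2.26, Krt14 0.53, Trp63 -0.12 and Krt5 -0.28. Their sums of 4005 and 3490 were mostly Trp63 (3533 and 3240). In the surface epithelium sums, Wt1 alone gave 21407 and 15468.

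The labelled tissue was checked against its own cells. Oocyte and granulosa genes were all well above background on both arrays, 10 of 10 in each list, and so were 4 of the 5 theca genes with a probe. The oocyte list had a median log2 ratio of 0.05 and sums of 165364 and 144036, with Gdf9 (-0.08), Oosp1 (0.07) and Zp3 (-0.13) the highest in mean signal and Figla (0.59) the largest ratio. The granulosa list had -0.57 and sums of 120665 and 126001, with Amhr2 (0.38), Inha (-0.68) and Foxl2 (0.32) the highest in mean signal and Inhbb (-1.17) the lowest ratio. The theca list had -0.10 over 4 genes and sums of 57232 and 47826, from Cyp17a1 (-0.41) to Cyp11a1 (0.79), with Hsd3b1 at 0.21.

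**Figure D4:**
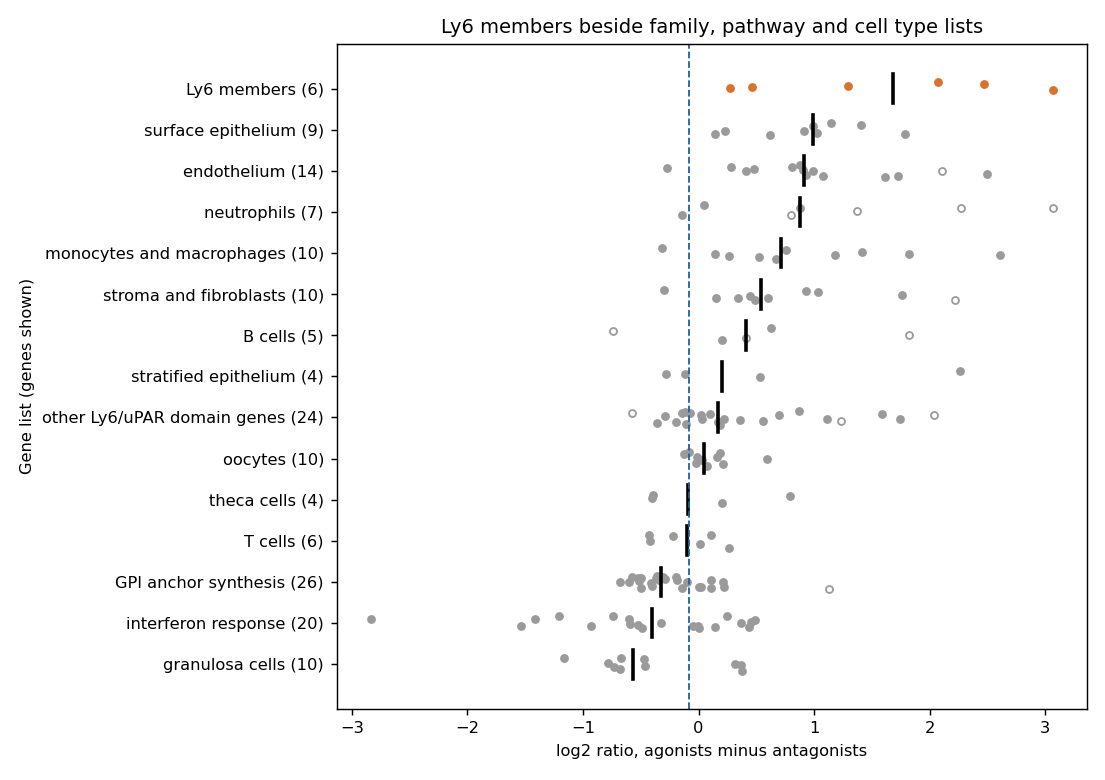
Log2 ratio, agonists minus antagonists, of the genes of each list (points) and their median (black bar), with the number of genes shown in parentheses; open points were well above background on 1 array only, and the dashed line is the median of all genes (-0.08). The Ly6 members (orange, median 1.68 over 6 genes, each by its brightest probe) spread from 0.27 to 3.07, and the medians of the interferon, GPI anchor and granulosa lists lie furthest left of the dashed line.

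With 2 arrays, likeness to Ly6c1 can be stated only as the nearness of a log2 ratio. Among 8429 genes in the brighter part of the arrays, whose mean reached the 75th percentile, the 5 nearest to the brighter Ly6c1 probe (3.07) were C3 (3.10), the central complement component, Ahsg (3.16), a plasma glycoprotein of the liver, Ccl6 (2.89), a myeloid chemokine, Marco (2.84), a macrophage scavenger receptor, and Pla1a (2.61), a phospholipase. C3 had a signal of 9437 with the agonists and 933 with the antagonists, Marco 1927 and 227.

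All scalings but quantile normalization, and the authors' values, change an array by a constant, which moves every probe alike. In these settings the order of the 7 Ly6 probes, and their place relative to the median of all probes, was fixed in advance. Quantile normalization and normexp could change both. The order was the same with quantile normalization and differed with normexp, and in both every Ly6 ratio was above the median of all probes. Without scaling the median of all probes became 0.14 and the ratios of Ly6c1 3.31 and 3.44. With normexp, a setting that starts from the median spot intensity and adds an offset of 50 to every signal, the order of the 2 Ly6c1 probes turned (2.91 for NM_001252055 and 2.62 for NM_001252058), Ly6d (0.86) fell below Ly6h (1.02), and Ly6i came to 0.03.

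**Figure D5:**
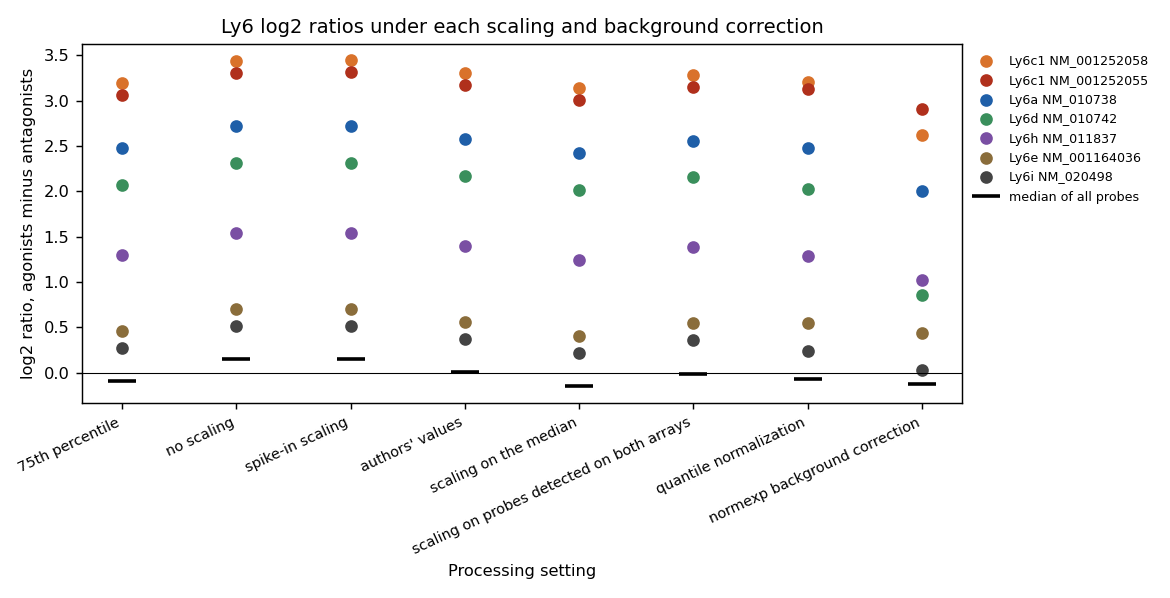
Log2 ratio, agonists minus antagonists, of the 7 Ly6 probes well above background on both arrays under each scaling and background correction, with the median of all probes as black bars. The points stay above the bars in every setting shown, but only quantile normalization and normexp could change this, since the other settings move points and bars alike. Under normexp Ly6d changes most, from 2.07 to 0.86, and Ly6e least, from 0.46 to 0.44.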

How the data were processed

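Cy3-labelled cRNA of 2 RNA samples, 1 cultured with agonists and 1 with antagonists, was hybridised to single-colour Agilent mouse arrays, 1 array per group. The authors deposited spot intensities from Agilent Feature Extraction 10.10.1.1, corrected for background by the software and not scaled between arrays, and a table of intensities that equals them times a constant per array (1.99 and 2.19). Control spots and outlier spots were left out, and log2 intensities were reduced by the array's 75th percentile and averaged per probe, which left 55674 probes. A probe counted as well above background when more than 50% of its spots passed the software's flag. Of these probes, 27230 were named through RefSeq transcripts (GRCm38.p6, names and gene order only; the array was annotated on another build), and 26994 carry other accessions and are not named here. In lists a gene was represented by its probe with the highest mean signal. For a lower bound, the brighter array was divided by the lowest passing signal of the other array, or by the dim signal itself where that was larger. With 1 array per group no test was made and precision is limited by the number of arrays.

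The members and gene lists were chosen with earlier results of these data known. The genes named are the Ly6 probes, their relatives well above background on both arrays, of each list the 3 with the highest mean signal and those with the largest and smallest log2 ratio, and the 5 nearest to Ly6c1; other genes, the flanking genes of the cluster, the promoter stretches and the motifs were chosen after values were seen. Alternatives were other scalings, the authors' values, normexp (limma 3.58.1 in R 4.3.3, offset 50, on the median spot intensity), other spot summaries and other filters. Python 3.11.15, numpy 2.4.6, pandas 2.3.3 and Biopython 1.88 were used. In data simulated for this comparison, 200 of 200 probes with a log2 ratio of 2 were recovered among 33073 probes, with noise SD 0.15. The planted ratio lay far above the 2-fold threshold for that noise, and variation between ovaries was not simulated. The simulation therefore checks the calculation and not how reliable the Ly6 ratios are.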

Additional observations from a re-analysis of the deposited data

How the results depend on the processing

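No paired analysis was possible because a group consists of 1 array and nothing was tested. Every Ly6 log2 ratio stayed above 0 in all settings, and 46 of 63 values moved by less than the spot error. The ratios could not move with the median over spots or with outliers kept, settings that these counts include. Each Ly6 probe had 1 spot and no outlier, so in those settings they were fixed in advance. Without scaling they were 2.72 for Ly6a, 3.31 and 3.44 for Ly6c1, 0.70 for Ly6e, 1.54 for Ly6h and 0.51 for Ly6i; scaling on the spike-in controls gave 2.72, 3.31, 3.45, 0.70, 1.54 and 0.52. With normexp they were 2.00 for Ly6a, 2.62 for the NM_001252058 probe of Ly6c1, 0.86 for Ly6d, 1.02 for Ly6h and 0.032 for Ly6i, and the log2 bound of the dimmer Ly6h probe was 0.16. The number of Ly6 probes at least 2-fold higher was 1 when probes under the 75th percentile were dropped, and otherwise between 4 and 6.

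Over all probes, 890 were past 2-fold upwards and 233 downwards. These counts became 410 and 60 under normexp, 1499 and 98 unscaled, 1509 and 97 scaled on the spike-in controls, 127 and 18 past 4-fold, 231 and 31 without probes under the 75th percentile, and 3339 and 2333 when dim probes were kept, and the authors' values put 149 downwards.

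The standard error of a list median was taken from the spread of its genes within the 1 pair of arrays. It is wide for short or varied lists and says nothing of how ovaries vary. Medians hardly moved with the median over spots or with outliers kept, settings that the following counts include. Of 165 list medians under the alternatives, 138 moved by less than their standard error, 19 by more and 8 changed sign. Those of T cells were 0.14 unscaled and 0.14 scaled on the spike-in controls; those of theca cells 0.15 and 0.15, 0.0062 with the authors' values, 0.034 with quantiles and 0.0062 with the mean over probes; and that of oocytes -0.0043 with scaling on the median. Unscaled, and then scaled on the spike-in controls, the medians were -0.082 and -0.079 for GPI anchor synthesis, -0.33 and -0.32 for granulosa cells, -0.16 and -0.16 for the interferon response, 0.29 and 0.30 for oocytes, 0.41 and 0.42 for other Ly6/uPAR genes and 1.23 and 1.24 for surface epithelium. The authors' values gave -0.22 for GPI anchor synthesis and 0.15 for oocytes, which had 0.16 with quantiles and 0.14 with scaling on detected probes. With normexp the Ly6 median was 0.94 and that of neutrophils 0.16, which was 0.045 over genes detected on both arrays. The changes under scaling follow the shift of the median of all probes, from -0.10 to 0.15 with spike-in controls. Signal over background limits Ly6d and the dimmer Ly6h probe.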
